A study of Mus musculus with 6 samples.

Results

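The genes described here are 9 markers of the T helper, regulatory and checkpoint state of CD4+ T cells, namely *Foxp3*, *Il2ra*, *Ctla4*, *Icos*, *Pdcd1*, *Tbx21*, *Ifng*, *Tnfrsf4* and *Tnfrsf18*. They were chosen by name, matched through their NCBI Gene identifiers, and all 9 were among the 18460 genes listed in at least 1 tumor. Whole breast tumors from 6 female mice were profiled by RNA sequencing, 1 library per tumor. All mice were Balb/c, carried the PyMTtg transgene, in which the mouse mammary tumor virus promoter drives the polyoma middle T oncogene in the mammary epithelium, lacked *Rag1* (Rag1KO) and therefore made no T or B cells of their own, received CD4+ T cells by injection at 4 weeks of age, and had tumors taken at endpoint in weeks 18 to 20. The 3 control tumors came from PyMTtg;Rag1KO + CD4+ T cell mice. The 3 test tumors came from K14-TSLPtg;PyMTtg;Rag1KO + CD4+ T cell mice and differed by the K14-TSLPtg transgene, which expresses the cytokine TSLP from a promoter active in keratinocytes. The comparison of test with control asked whether the transcripts of these T cell states differed between tumors grown with and without the TSLP transgene. Only 3 of the 9 genes had enough reads for the test. None of these 3 passed it at an adjusted p of 0.05, and neither did any other of the 13706 genes tested.

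FOXP3 is the transcription factor that specifies regulatory T cells, which restrain other lymphocytes. Regulatory T cells carry the high-affinity interleukin 2 receptor α chain (CD25, *Il2ra*) and the receptors CTLA-4, GITR (*Tnfrsf18*) and OX40 (*Tnfrsf4*), all of which activated conventional T cells can also carry. T-bet (*Tbx21*) directs the type 1 program of helper cells, with interferon γ (*Ifng*) as its main cytokine, whereas ICOS and PD-1 (*Pdcd1*) mark activated, follicular helper and chronically stimulated cells.

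In every tumor most of the signal of these genes came from 2 of them. By FPKM, which corrects reads for gene length and library size and so allows genes to be compared, *Tnfrsf18* and *Foxp3* together made up 66.8% to 90.5% of the sum over the 9 genes in each tumor. *Foxp3*, *Il2ra* and *Tnfrsf18* had enough reads for a test. The other 6 genes totaled between 1 and 16 reads each over all 6 tumors. Because the tumors were sequenced whole, a lower number of T cells and less RNA of a gene per T cell cannot be told apart. Nor do the reads show whether T cells or other cells made the RNA.

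The sequences just upstream of the 3 measurable genes are shown as a description. Whether their motifs bear on the levels of the genes in these tumors was not tested. Each is the 250 bases before the RefSeq start site, 5′ to 3′, in build GRCm38.p6, and each gene lies on the plus strand. *Foxp3* lies at chrX:7579676-7595243, *Tnfrsf18* at chr4:156026322-156028894 and *Il2ra* at chr2:11642792-11693194, so that the windows are chrX:7579426-7579675 and, for a second *Foxp3* start site, chrX:7580233-7580482, then chr4:156026072-156026321 and chr2:11642542-11642791. Capitals mark matches on either strand to 1 of 5 motifs searched, which were GATAA (GATA factors), TTCNNNGAA (STAT factors), TGTGGT (RUNX), TGANTCA (AP-1) and CCGGAA (ETS). Of the 9 genes 8 had an entry, with 2 start sites for *Foxp3*, both printed.
Foxp3, upstream start: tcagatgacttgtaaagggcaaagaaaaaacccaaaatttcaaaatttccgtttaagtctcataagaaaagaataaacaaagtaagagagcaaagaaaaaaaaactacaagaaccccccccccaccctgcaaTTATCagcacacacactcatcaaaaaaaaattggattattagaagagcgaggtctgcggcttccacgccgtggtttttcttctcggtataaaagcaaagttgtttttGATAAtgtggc
Foxp3, downstream start: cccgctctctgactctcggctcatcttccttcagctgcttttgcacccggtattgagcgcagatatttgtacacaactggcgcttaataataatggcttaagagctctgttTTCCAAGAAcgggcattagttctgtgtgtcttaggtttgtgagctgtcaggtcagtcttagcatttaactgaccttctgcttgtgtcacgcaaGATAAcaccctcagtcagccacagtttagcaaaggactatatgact
Tnfrsf18: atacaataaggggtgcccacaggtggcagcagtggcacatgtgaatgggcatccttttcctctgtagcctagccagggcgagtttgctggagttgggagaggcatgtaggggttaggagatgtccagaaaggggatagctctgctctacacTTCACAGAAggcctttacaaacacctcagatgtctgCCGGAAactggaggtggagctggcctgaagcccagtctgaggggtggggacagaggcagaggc
Il2ra: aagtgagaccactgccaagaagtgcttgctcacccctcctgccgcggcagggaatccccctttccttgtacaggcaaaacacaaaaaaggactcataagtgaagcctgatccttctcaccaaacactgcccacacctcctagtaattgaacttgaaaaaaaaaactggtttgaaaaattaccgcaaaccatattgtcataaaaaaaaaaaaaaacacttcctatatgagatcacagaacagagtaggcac
The upstream *Foxp3* window held 2 GATA matches, at 118 and 11 bases before the start, and the downstream one a STAT match at 139 bases and a GATA match at 46 bases before its start. The *Tnfrsf18* window held 1 STAT match at 99 bases and 1 ETS match at 63 bases before the start, and the *Il2ra* window held none of the 5 motifs. Among 32851 mouse promoter windows of the same length, 22.6% held GATAA, 7.02% the STAT motif, 14.05% TGTGGT, 6.75% the AP-1 motif and 12.03% CCGGAA. The downstream *Foxp3* window and the *Tnfrsf18* window thus both held the STAT motif. The upstream *Foxp3* window shared none of the 5 motifs with *Tnfrsf18*. The STAT motif was not particular to that pair, because the *Ifng* window, not printed here, held it too. The windows of *Ctla4*, *Pdcd1*, *Tbx21* and *Tnfrsf4*, also not printed, held none of the 5 motifs.

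Total expected counts were 8373390 to 9449565 per tumor, and at that depth 3 reads correspond to 0.317 to 0.358 CPM, which are counts scaled to a common library size. *Tslp* had 2, 2 and 3 reads in control tumors and 12, 7 and 2 in test tumors, so that test replicate 3 did not stand above the controls for the transgene's own gene. *Rag1* had 27, 4 and 10 reads in control and 6, 12 and 9 in test tumors, and a gene total cannot show whether these fall in the deleted part. Control replicate 2 had a Pearson r across tested genes of 0.921 to 0.935 with the test tumors and of 0.874 and 0.908 with the other controls, so it stood nearer to the test group than to its own. Without it the log2 fold changes were 0.06 for *Foxp3*, 0.31 for *Tnfrsf18* and 1.02 for *Il2ra*. No gene of the 3 passed the test, against 182 of all 14166 genes tested in that fit. The 13 T cell markers were all listed and summed to 7.13 to 8.22 FPKM in control and 7.50 to 11.4 FPKM in test tumors, with *Cd2* at 0 in control replicate 2. Much of each sum was the single gene *Cd247*, at 3.32 to 3.76 FPKM in control and 3.14 to 7.29 FPKM in test tumors. Its highest value was in test replicate 1, the tumor with the highest sum. The CD8 genes *Cd8a* and *Cd8b1* summed to 0.06 to 0.27 FPKM in control and 0.41 to 0.84 FPKM in test tumors, although CD4+ cells had been injected; some dendritic cells also express *Cd8a*. The 4 general leukocyte markers summed to 51.3 to 108 FPKM in control and 38.2 to 68.0 FPKM in test tumors, and the 7 breast epithelial markers to 1040 to 2090 against 2740 to 2940 FPKM. The part of this difference in composition in the values of the 9 genes was not tested.

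*Foxp3* was detected in all 6 tumors. Controls 1 to 3 had 39, 61 and 82 reads and test tumors 1 to 3 had 30, 91 and 58, which correspond to 1.13, 1.84 and 2.43 FPKM and to 0.96, 2.84 and 1.65 FPKM. The lowest and the highest value were both in test tumors, and the groups overlapped fully. The mean level was 1.80 FPKM ± 0.651 (SD, n = 3) in control tumors and 1.82 FPKM ± 0.951 (SD, n = 3) in test tumors. The log2 fold change was 0.06 with a standard error of 0.52 and a 95% interval from -1.15 to 1.27 (adjusted p = 0.978, edgeR quasi-likelihood fit, Benjamini-Hochberg adjusted; exact two-sided permutation test, p = 0.9). The interval includes a fall or a rise of more than a factor of 2, so a moderate change in *Foxp3* was not detectable. Without test replicate 2 the log2 fold change was -0.45 and without control replicate 1 it was -0.16.

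Part of *Foxp3* overlaps another gene on the opposite strand, and whether the counting used strand is not given in the sources used here; without strand the reads of both genes cannot be told apart there. Among the transcripts named in the deposited tables, 590 of 3937 exon bases of *Foxp3* (14.99%) lie opposite exons of *Ccdc22*, which encodes a subunit of an endosomal sorting complex and is widely expressed, at chrX:7593809-7595055. A further 274 bases (6.96%) are shared on the same strand with *Flicr*, a non-coding RNA made beside *Foxp3*. *Ccdc22* had 161, 247 and 211 reads in controls 1 to 3 and 145, 203 and 208 in test tumors 1 to 3, more than *Foxp3* in every tumor. Both genes had whole read numbers in all 6 tumors, and their levels had a Pearson r of 0.81 (Spearman rho 0.83, n = 6 tumors, log2 scale), given as a description, with both values from the same libraries. Without the 2 tumors farthest from the median of *Foxp3*, test replicates 1 and 2, r was 0.59. *Flicr* had 0, 2 and 3 reads in control tumors and 3, 8 and 2 in test tumors, with its highest value in the tumor highest for *Foxp3*. Whether reads of *Ccdc22* add to the *Foxp3* values was not tested.

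*Tnfrsf18* encodes GITR, a costimulatory receptor of the tumor necrosis factor receptor family that regulatory T cells carry at rest. It had 21, 38 and 50 reads in controls 1 to 3 and 34, 63 and 27 in test tumors 1 to 3, or 2.37, 4.55 and 5.87 FPKM against 4.29, 7.82 and 3.02 FPKM. The groups overlapped, and test replicate 2 was again the highest. The means were 4.26 FPKM ± 1.77 (SD, n = 3) and 5.04 FPKM ± 2.49 (SD, n = 3). The log2 fold change was 0.28 with a standard error of 0.54 and a 95% interval from -0.98 to 1.55 (adjusted p = 0.901, edgeR's quasi-likelihood test; exact two-sided permutation test, p = 0.7). Without test replicate 2 it was -0.22. Per gene length, *Tnfrsf18* had the highest level of the 9 genes and exceeded *Foxp3* in all 6 tumors. Of its 1524 annotated exon bases 414 (27.2%) lie opposite an antisense transcript, *Gm16008*, which had 3 reads in control replicate 1, 3 in test replicate 3 and none in the other tumors. The 1189 exon bases of the *Tnfrsf18* transcripts named in the deposited tables overlap no other transcript named there.

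*Il2ra* encodes the chain that gives the interleukin 2 receptor its high affinity. It had 14.6, 23.0 and 23.2 reads in controls 1 to 3 and 18.0, 15.8 and 81.7 in test tumors 1 to 3. Test replicate 3 stood far above the other 5 tumors, at 1.93 FPKM against 0.35 to 0.58 FPKM, while the remaining test tumors lay within the range of the controls. The means were 0.50 FPKM ± 0.130 (SD, n = 3) in control tumors and 0.940 FPKM ± 0.858 (SD, n = 3) in test tumors. The log2 fold change was 0.93 with a standard error of 0.69 and a 95% interval from -0.67 to 2.53 (adjusted p = 0.754, edgeR's quasi-likelihood test; exact two-sided permutation test, p = 0.8). Without test replicate 3 it was -0.13, so the sign of the difference rested on that tumor, which is also the test tumor without raised *Tslp* reads. A test that pools the reads of each group and treats reads as the replicates called *Il2ra* higher in test tumors (log2 fold change 0.97, adjusted p = 4.28e-05), but the same test called 10479 of 18436 genes, or 56.8% of all genes, and takes no account of the spread between tumors.

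**Figure D1:**
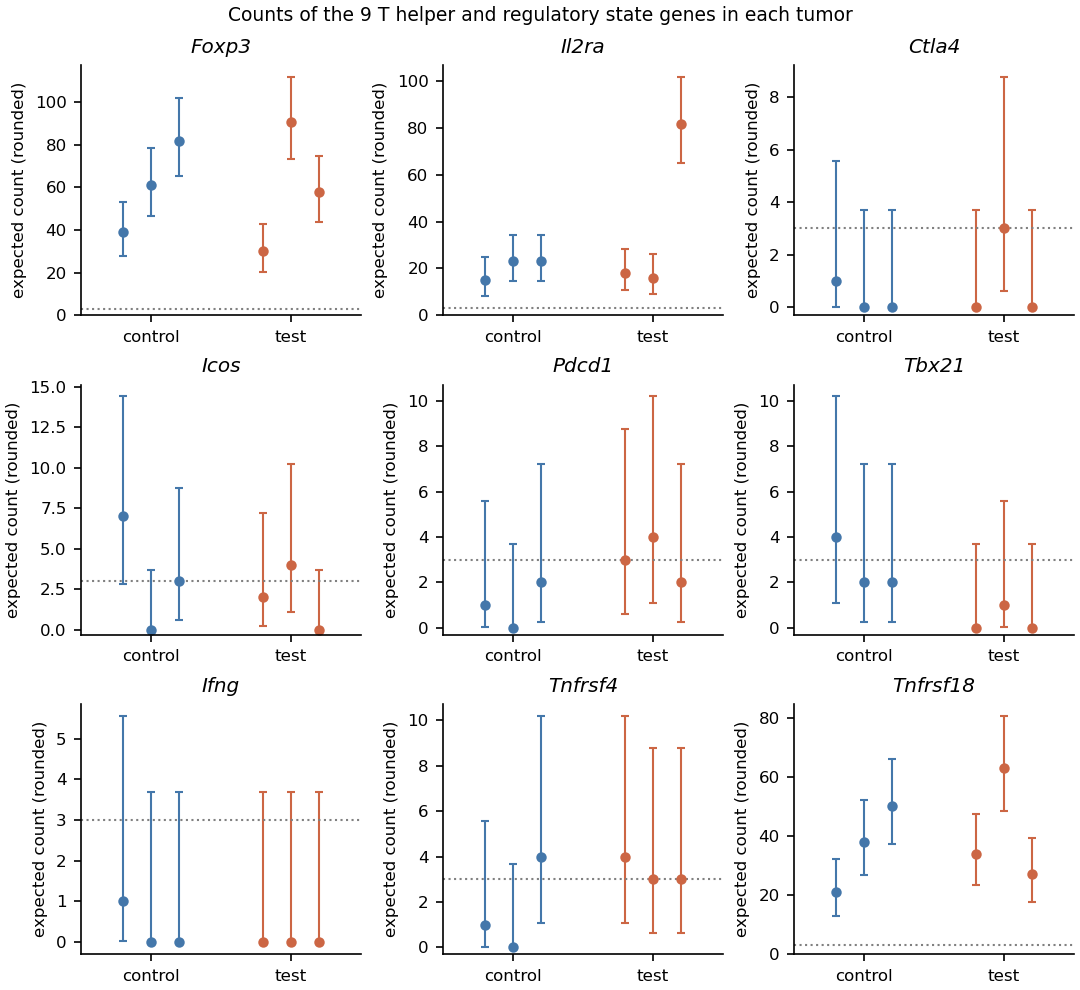
Reads (rounded expected counts, linear axis) of each of the 9 genes in the 3 control tumors (blue) and the 3 test tumors (red), replicates 1 to 3 from left to right, with exact 95% Poisson intervals that cover counting error only; the dotted line marks 3 reads. *Foxp3*, *Il2ra* and *Tnfrsf18* were above that line in all 6 tumors, *Il2ra* was highest in test replicate 3 with 81.7 reads, and the other 6 genes had at most 7 reads in any tumor.

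The type 1 genes were close to the limit of detection. *Ifng* had 1 read in control replicate 1 and was not listed in the other 5 tumors. *Tbx21* had 4, 2 and 2 reads in control tumors and 0, 1 and 0 in test tumors. It was the only gene of the 9 whose groups did not overlap, against 10.6% of all 18460 genes listed (5.11% for lower values in test tumors), and 3 tumors against 3 cannot give an exact two-sided permutation p below 0.1, which is the value it had. Pooled over the tumors of each group, 1 read against 8 gave a ratio of 0.129 with a 95% interval from 0.00291 to 0.963 for counting error. Only control replicate 1 exceeded 3 reads, the floor used here for a single library; the two-sided 95% Poisson interval of a count of 0 reaches 3.69. In the fit without a filter on low counts the log2 fold change of *Tbx21* was -2.57 with a standard error of 1.43 (adjusted p = 0.704, edgeR's quasi-likelihood test). Without control replicate 2, the control nearest to the test tumors, *Tbx21* remained the only gene of the 9 without overlap, while the share among all listed genes was then 30.6%.

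The checkpoint and costimulatory receptors were as sparse. *Ctla4*, the inhibitory receptor that competes with CD28 for its ligands, had 1, 0 and 0 reads in control tumors and 0, 3 and 0 in test tumors. *Icos*, a costimulatory receptor of helper cells, had 7, 0 and 3 reads against 2, 4 and 0. *Pdcd1*, which encodes the inhibitory receptor PD-1, had 1, 0 and 2 reads against 3, 4 and 2. In none of these genes were more than 2 tumors above 3 reads, and each was at 0 in at least 1 control tumor. *Tnfrsf4*, which encodes OX40, had 1, 0 and 4 reads in control tumors and 4, 3 and 3 in test tumors. The pooled ratios of test to control were 3.10 for *Ctla4* (95% counting interval 0.249 to 163), 0.619 for *Icos* (0.185 to 1.88), 3.10 for *Pdcd1* (0.773 to 17.8) and 2.07 for *Tnfrsf4* (0.643 to 7.70). Each of these intervals includes 1, so no difference was detectable at this depth. *Ctla4* and *Icos* lie next to each other on chromosome 1, 44941 bases apart, and *Tnfrsf4* and *Tnfrsf18* are 9709 bases apart on chromosome 4, but *Tnfrsf18* had 233 reads in total and its neighbor 15.

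Ordered by the median FPKM over the 6 tumors, the genes ran from *Tnfrsf18* (4.42) through *Foxp3* (1.75), *Il2ra* (0.53), *Tnfrsf4* (0.30), *Pdcd1* (0.11), *Icos* (0.085) and *Tbx21* (0.07) to *Ctla4* and *Ifng* (both 0). The ranges of every pair of neighbors in this order overlapped. Within single tumors *Tnfrsf18* was above *Foxp3* in 6 of 6, *Foxp3* above *Il2ra* in 5 of 6, the exception being test replicate 3, and *Il2ra* above *Tnfrsf4* in 6 of 6. Below *Tnfrsf4* a level corresponded to a few reads and the order was not resolved.

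The levels of *Foxp3* and *Tnfrsf18* were set beside the T cell receptor complex, which every T cell carries. *Cd3e*, a signaling chain of that complex, had 4, 1 and 7 reads in controls 1 to 3 and 3, 1 and 5 in test tumors 1 to 3. *Cd3d* had 9.39, 14.3 and 12.1 reads against 8.21, 20.6 and 9.99, and *Cd3g* had 2, 5 and 0 against 4, 4 and 3. *Cd4*, the coreceptor of the injected cells, which some dendritic cells also carry, had 19, 16 and 35 reads against 9, 13 and 18. All 4 genes overlapped between the groups. In FPKM, *Foxp3* exceeded *Cd3e* by 3.77-fold, 4.50-fold and 4.46-fold in control replicates 1 and 3 and test replicate 3, the tumors with more than 3 *Cd3e* reads. It exceeded *Cd4* by 1.71-fold to 5.92-fold in the 6 tumors, and its ratio to the sum of the 3 CD3 chains was 0.876, 0.989 and 1.57 in control tumors and 0.653, 1.21 and 1.11 in test tumors. The ratio of *Tnfrsf18* to the same sum was 1.84, 2.45 and 3.79 in control tumors and 2.92, 3.33 and 2.03 in test tumors. *Cd247*, a further chain of the complex that is not in this sum, was more abundant. It was at 3.49, 3.32 and 3.76 FPKM in control and 7.29, 4.51 and 3.14 FPKM in test tumors, above *Foxp3* in all 6. The strand question for *Foxp3* applies to its ratios.

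**Figure D2:**
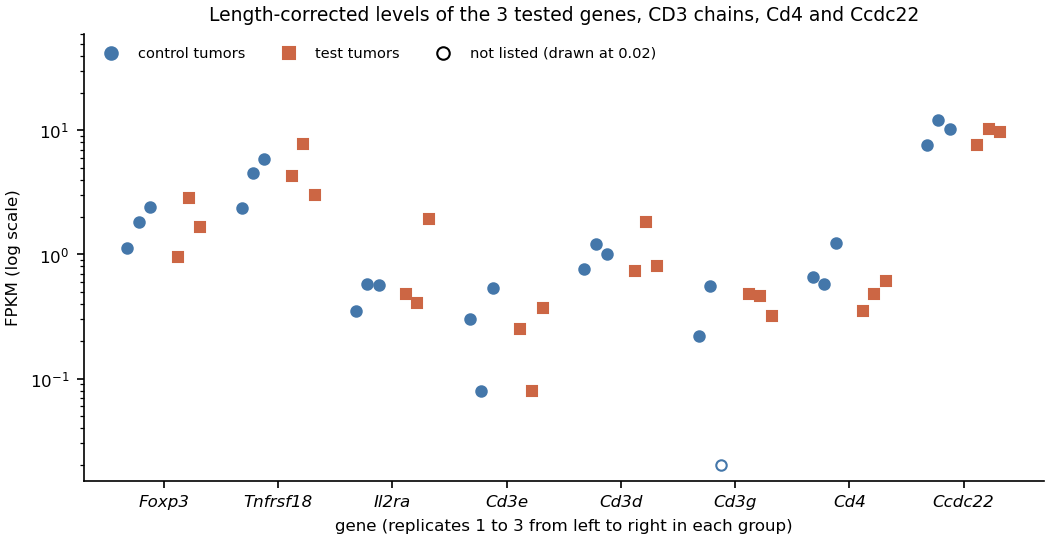
FPKM (log axis) of *Foxp3*, *Tnfrsf18*, *Il2ra*, the 3 CD3 chains, *Cd4* and *Ccdc22* in each control tumor (blue circles) and test tumor (red squares), replicates 1 to 3 from left to right; the open circle is a tumor in which *Cd3g* was not listed. *Foxp3* lies above *Cd3e* in all 6 tumors and *Ccdc22* lies above the other genes shown within each tumor.

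Across the tumors *Foxp3* and *Tnfrsf18* varied together, with r = 0.75 and rho = 0.83 (n = 6 tumors, log2 scale, given as a description), and r was 0.94 without test replicates 1 and 2, the tumors farthest from the median of *Foxp3*. Of the 4 tested T cell markers *Cd3d* was nearest to *Foxp3*, with r = 0.84 and rho = 0.94, and r was 0.56 without those tumors. The others did not follow *Foxp3* as closely. Their r was 0.459 for *Cd4*, 0.485 for *Lck* and -0.469 for *Cd247*, with rho of 0.2, 0.371 and -0.029. *Il2ra* did not follow either gene, with r = 0.03 for *Foxp3* and -0.34 for *Tnfrsf18*. The points are the same 6 libraries in each case. The 3 tested genes most like *Foxp3* were *Coq8b* (r = 0.988), *C1qtnf5* (0.982) and *Ethe1* (0.979), and those most like *Tnfrsf18* were *Gcm1* (0.998), *Hyi* (0.991) and *Hacd4* (0.985). For *Il2ra* they were *Tsen54* (0.999), *Sgsh* (0.993) and *Cbx2* (0.980). With only 6 tumors, high values were not limited to the genes named. An r of 0.9 with *Foxp3*, *Tnfrsf18* and *Il2ra* was reached by 119, 150 and 69 of the 13706 tested genes. For *Il2ra*, at 8.7 CPM in test replicate 3 and 1.74 to 2.49 CPM in the other tumors, r rests mainly on that 1 tumor.

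The ligands and partner receptor chains of the 9 genes were compared in the same way. Of 12 partners 11 were listed, *Il2* being the exception, and 7 were tested, 3 with a higher and 4 with a lower value in test tumors. None had an adjusted p of 0.05 or less, as for all 13706 genes tested, of which 0.0% did (edgeR's quasi-likelihood test; lowest adjusted p = 0.394); 8.41% of all tested genes and none of the 3 tested genes or their 7 tested partners had an unadjusted p under 0.05. *Ifngr1*, the ligand-binding chain of the interferon γ receptor, was at 22.3, 24.8 and 24.7 FPKM in control tumors and 41.8, 29.5 and 29.5 FPKM in test tumors. Its groups did not overlap, yet its log2 fold change of 0.49 (standard error 0.23) had an adjusted p of 0.64 in edgeR's quasi-likelihood test. *Cd86*, a ligand of CD28 and CTLA-4 on antigen-presenting cells, was at 1.91, 1.85 and 2.72 FPKM in control and 1.31, 1.28 and 1.66 FPKM in test tumors, also without overlap (log2 fold change -0.59, standard error 0.41, adjusted p = 0.732 in the same test). Among all tested genes the groups did not overlap in 12.0%.

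The other partners overlapped between the groups. *Ifngr2*, the signaling chain of the interferon γ receptor, had a log2 fold change of -0.31. *Cd274*, which encodes the PD-1 ligand PD-L1, had 197, 22.7 and 63.6 reads in control tumors and 33.6, 57.3 and 67.5 in test tumors, all within the range of the controls. *Icosl*, the ligand of ICOS, had a log2 fold change of 0.41, *Il2rb* of -0.41 and *Il2rg* of 0.04, the last pair being the signaling chains of the interleukin 2 receptor. *Il2rg*, which other cytokine receptors share, was at 1.34 to 7.05 FPKM and exceeded *Il2ra* in all 6 tumors. Of the untested ligands, *Cd80* had at most 4 reads in a tumor, the PD-1 ligand *Pdcd1lg2* at most 4, the OX40 ligand *Tnfsf4* 1 read in all, and the GITR ligand *Tnfsf18* between 1 and 7.

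**Figure D3:**
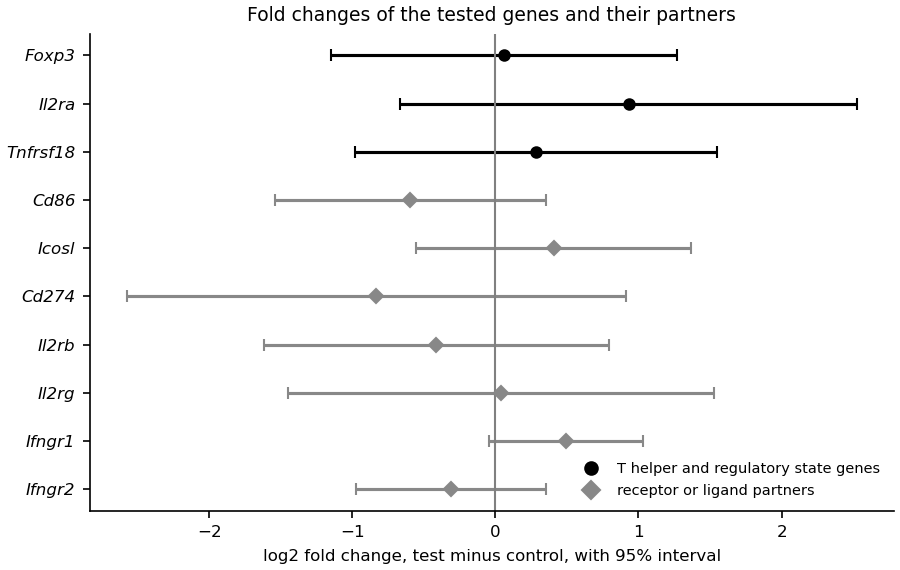
Log2 fold change (test minus control) with its 95% interval from edgeR's quasi-likelihood fit for the 3 tested genes (black circles) and their 7 tested partners (gray diamonds). All 10 intervals include 0; that of *Ifngr1* runs from -0.05 to 1.03 and that of *Il2ra* from -0.67 to 2.53.

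Other genes of the same programs were compared in lists, and no list had a member with an adjusted p of 0.05 or less. Of 13 other regulatory T cell genes 10 were tested, 6 with a higher and 4 with a lower value, with a median log2 fold change of 0.12 against 0.02 over all tested genes. The most abundant were *Capg*, an actin-capping protein made by many cells, at 49.96, 95.5 and 59.0 FPKM in control and 86.6, 178 and 91.0 FPKM in test tumors, *Lrrc32*, which presents latent TGF-β, at 5.17 to 14.4 FPKM, and *Nt5e*, which encodes the ectoenzyme CD73, at 2.14 to 19.5 FPKM. These genes are also expressed outside the T cell lineage. *Ikzf2*, which encodes Helios, had 44, 25 and 25 reads in control and 58, 42 and 78 reads in test tumors and did not overlap once expressed as CPM (5.09 against 5.13 CPM at the closest; log2 fold change 0.94, standard error 0.46, adjusted p = 0.65, edgeR's quasi-likelihood test); it was singled out after its values were seen.

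Of 10 other checkpoint and costimulatory receptors 9 were listed and 5 tested, 1 higher and 4 lower, with a median of -0.27. *Vsir*, which encodes the inhibitory ligand VISTA and is abundant on myeloid cells, was at 28.7, 11.1 and 19.4 FPKM in control tumors and 5.17, 8.35 and 4.30 FPKM in test tumors. The groups did not overlap, and the log2 fold change was -1.74 with a standard error of 0.45, at an unadjusted p of 0.00544 and an adjusted p of 0.407 (edgeR's quasi-likelihood test). *Tigit* had 109 reads in test replicate 2 and 23.9 to 37.0 in the other tumors. *Havcr2*, which encodes TIM-3, was at 1.96 to 3.79 FPKM with overlap.

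The helper lists were of the same kind. Of 8 type 1 genes 4 were tested, 2 higher and 2 lower (median 0.06), with *Runx3* at 2.39 to 5.40 FPKM and *Il18r1* at 0.47 to 3.10 FPKM, both with overlap. *Il12rb1*, a chain of the interleukin 12 and 23 receptors, had 69, 14 and 17 reads in control and 3, 5 and 3 in test tumors (log2 fold change -3.11, standard error 0.85, unadjusted p = 0.00699, adjusted p = 0.425, edgeR's quasi-likelihood test), and it too was singled out after its values were seen. Of 10 type 2 genes 8 were listed, *Il4* and *Il13* not being so, and 7 tested, 4 higher and 3 lower (median 0.12). *Gata3*, the type 2 regulator that luminal mammary cells also express, was at 67.8 to 81.8 FPKM in control and 73.2 to 90.7 FPKM in test tumors, *Stat6* at 16.2 to 27.8 FPKM and *Crlf2*, the TSLP receptor chain, at 4.23 to 11.2 FPKM. Of 8 type 17 and follicular helper genes 6 were listed, *Il17a* and *Il17f* not, and 3 tested, among them *Bcl6* at 5.82 to 21.5 FPKM and *Cxcr5* at 0.13 to 0.53 FPKM. *Il5*, another type 2 cytokine, had 2 reads in total.

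Genes that interferon γ induces were measurable although *Ifng* itself was not. Of 21 such genes 19 were tested, 5 with a higher and 14 with a lower value in test tumors, and none had an unadjusted p under 0.05 (median log2 fold change -0.19). The most abundant were the immunoproteasome subunit *Psmb8*, at 141, 24.1 and 52.9 FPKM in control and 49.6, 53.8 and 143 FPKM in test tumors, the GTPase *Irgm1*, at 76.4, 13.4 and 36.7 against 24.1, 20.5 and 68.7 FPKM, and the peptide transporter *Tap1*, at 55.5, 11.5 and 29.9 against 32.0, 13.3 and 46.4 FPKM. The spread within each group was far wider than the difference between them. After each gene was centered on its mean over the tumors, the median of the 19 genes was 1.33, -1.34 and 0.10 in the 3 controls, in the order of their numbers, and -0.42, -0.46 and 0.79 in the test tumors (log2 scale). The single *Ifng* read was in control replicate 1, the tumor highest for its target genes, and other interferons induce most of the list as well.

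**Figure D4:**
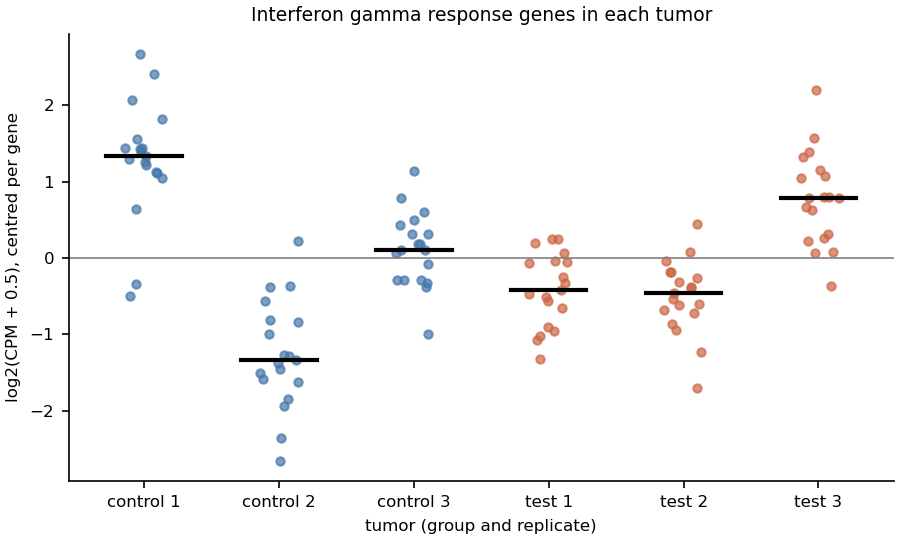
Log2(CPM + 0.5) of 19 interferon γ response genes, each centered on its mean over the 6 tumors, in the control (blue) and test (red) tumors; each point is 1 gene and the black bar is the median. The medians run from -1.34 in control replicate 2 to 1.33 in control replicate 1, with the test tumors between them.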

How the data were processed

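RNA from 6 whole breast tumors (3 control, 3 test), labeled as separate samples, was sequenced at the Beijing Genomics Institute on an Illumina HiSeq. The authors aligned the reads to mm10 with Bowtie; the submitters' processing notes also list RSEM and BWA. Strand setting, versions and annotation release are not given in the sources used here. The deposited tables hold 1 row per gene and 1 file per tumor, with an expected count (an estimated count of reads, not always whole) and an FPKM value computed by the authors. Genes not listed in a tumor were set to 0. Of 18460 genes, 18400 matched a symbol by NCBI Gene identifier, 13 by transcript and 47 not at all.

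Expected counts were rounded and tested with edgeR 4.0.16 (R 4.3.3): filterByExpr, TMM scaling, quasi-likelihood test, Benjamini-Hochberg adjustment over 13706 genes, threshold 0.05. The common biological coefficient of variation was 0.434. Exact two-sided permutation tests over all 20 splits used log2(CPM + 0.5), with CPM on TMM-scaled library sizes. Poisson and ratio intervals (95%) and the floor of 3 reads per library cover counting error only. Exon overlaps came from GENCODE M21 and promoters from RefSeq. Alternatives were DESeq2 1.42.0, other scalings and filters, limma 3.58.1 on log2(FPKM + 1) and log2(FPKM + 0.1), a replicate block, a pooled Poisson test and leaving out each tumor.

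The 9 genes, the lists and the tests were chosen with earlier results of these data known. Named genes were the 9, every partner, the 3 most abundant genes of each other gene list (cell type markers as sums), the 3 genes of highest correlation with each tested gene, *Cd3e*, *Cd3d*, *Cd3g* and *Cd4*, and any listed gene passing the threshold; others are marked or stand in a summary, and some genes that the rule names are not reported here. Except in the pooled Poisson test, p-values set a difference against the spread between these tumors.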

Additional observations from a re-analysis of the deposited data

How the results depend on the processing

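None of 13706 genes had an adjusted p of 0.05 or less in edgeR's quasi-likelihood test (1153 had an unadjusted p under 0.05). DESeq2 called 313 of 13674 genes and the pooled Poisson test 10479 of 18436. Leaving out single tumors gave 0 to 182 genes, the highest, 182 of 14166, without control replicate 2. Of the 9 genes, the pooled Poisson test called 1, *Il2ra* (log2 fold change 0.97), and every other alternative, the 6 left-out tumors included (0 to 0), called none. All 9 genes were in the pooled Poisson test, the fit without a filter and both limma fits, and only 3 in the other alternatives. The log2 fold change of *Foxp3* (0.06) turned to -0.019 with limma on log2(FPKM + 1), to -0.049 on log2(FPKM + 0.1), to -0.043 with the replicate block, to -0.158 without control replicate 1 and to -0.453 without test replicate 2; leaving out single tumors gave -0.453 to 0.38. That of *Il2ra* turned to -0.131 without test replicate 3 (range -0.131 to 1.28) and that of *Tnfrsf18* to -0.221 without test replicate 2 (range -0.221 to 0.563). The cause was not tested. Under the replicate block *Il2ra* was at 0.595 and *Tnfrsf18* at 0.243, and no gene was called. Same-numbered tumors came from different mice and their deviations had correlations of -0.137 to 0.121, so the numbers do not pair them. Genes of the 9 without overlap numbered 1 (*Tbx21*), 2 with RLE scaling (*Pdcd1*, *Tbx21*; 10.6% of all listed genes), and 1 to 3 when a tumor was left out, an alternative chosen after seeing the data: 3 without control replicate 3 (*Pdcd1*, *Tbx21*, *Tnfrsf4*; 15.4% of all listed genes) and 2 without test replicate 3 (*Pdcd1*, *Tbx21*; 20.8%). With 6 of the 9 genes at 7 or fewer reads in every tumor, depth limits what can be compared.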

Other observations

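The tumor that stood apart for *Il2ra* also stood apart for a stretch of chromosome 11, although *Il2ra* lies on chromosome 2. Of the 69 tested genes with an r of 0.9 or more with *Il2ra*, 41 (59.4%) were on chromosome 11, which holds 8.29% of all tested genes, and 37 of those 41 started at or beyond 110 Mb. *Tsen54*, *Sgsh* and *Cbx2*, the 3 genes most like *Il2ra*, are among them. For the 173 tested genes of chromosome 11 from 110 Mb to its end, the median difference between a tumor and the mean of the other 5 was 1.24 on the log2 scale in test replicate 3, against -0.36 to -0.02 in the other tumors. For the 961 tested genes before 110 Mb it was -0.09 in test replicate 3. Around *Il2ra* itself, the 21 tested genes between 10 and 14 Mb of chromosome 2 had a median difference of 0.08 in that tumor. The boundary at 110 Mb was chosen after the values were seen. For *Foxp3* and *Tnfrsf18* the chromosome with most of such genes was 7, with 14.3% of 119 and 13.3% of 150 genes against 7.62% of all tested genes.

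The CD8 coreceptor gene *Cd8a* had 1, 4 and 4 reads in control tumors and 13, 4 and 12 in test tumors, and did not overlap once scaled to library size (0.433 against 0.488 CPM at the closest). *Izumo1r*, which encodes the folate receptor 4 of regulatory T cells, had 18, 5 and 24 reads in control tumors and 4, 6 and 5 in test tumors, with control replicate 2 within the test range. *Gzma*, a granule protease of cytotoxic cells, had 6, 1 and 5 reads in control tumors and 14, 31 and 6 in test tumors. These 3 genes were chosen after their values were seen and did not pass the filter on low counts. In edgeR's quasi-likelihood fit without that filter their log2 fold changes were 1.69 for *Cd8a* (standard error 0.93, adjusted p = 0.698), -1.58 for *Izumo1r* (0.83, adjusted p = 0.69) and 2.13 for *Gzma* (0.96, adjusted p = 0.63). *Gzma* is 1 gene of the marker list of NK and cytotoxic cells, which did not move as a whole. Of its 2 tested genes, 1 was higher and 1 lower in test tumors. *Prf1*, also on that list, had 26, 2 and 11 reads in control tumors and 1, 2 and 5.22 in test tumors. Its log2 fold change in the same fit was -2.24.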
